A study of Homo sapiens with 6 samples.

Results

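The genes that encode the chains of collagens and laminins were examined in PANC-1, a human cell line from a pancreatic ductal carcinoma, with and without maslinic acid (MA), a plant triterpenoid. They were taken by name from the gene table of an RNA sequencing experiment, from rows whose symbol is COL, a number, A and a number, or LAM, then A, B or C, and a number. The genes described are 55 of the 58825 rows, 44 of them collagen chains and 11 laminin chains. The MA PANC-1 group held 3 samples treated with 40 μM MA for 24 h, and the PANC-1 group held 3 samples that the labels call untreated. The culture methods name 0.1% DMSO as the control treatment for MA, while the methods for the sequencing give only 0 μM MA. No genetic change was made in either group, and all samples come from this 1 line. The methods call the samples biological replicates and state that experiments were repeated independently, while the labels do not describe the cultures, so the p-values measure the spread between these samples. The total of the estimated counts was 56978375, 63984133 and 58181114 for MA PANC-1 1 to 3 and 70275355, 65607669 and 59422939 for PANC-1 1 to 3. The chain genes took between 0.249% and 0.322% of them.

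A collagen is built from 3 chains wound into a triple helix, and each gene gives 1 kind of chain. Fibrillar collagens form banded fibrils, collagen IV forms the sheet of the basement membrane, collagen VI forms beaded filaments, and collagen VII anchors the basement membrane to the tissue under it. A laminin is a cross-shaped trimer of 1 alpha, 1 beta and 1 gamma chain, and it is the protein that starts a basement membrane and that integrins on epithelial cells hold on to. Dense collagen around the tumor cells is a known feature of pancreatic ductal carcinoma, and much of it is made by stromal fibroblasts and stellate cells, which a culture of 1 cell line does not contain.

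The cells carried the keratins KRT8 and KRT18 and the mesenchymal genes VIM and CDH2. KRT8 lay between 141 and 225 FPKM (fragments per kilobase of gene, scaled to sequencing depth), KRT18 between 278 and 338 and VIM between 521 and 754. CDH2 lay between 12.2 and 17.35 FPKM, KRT7 between 1.4 and 2.195 and CDH1 between 0.778 and 1.28. The epithelial marker KRT19 was low, at 0.109 FPKM or less in every sample, and so was EPCAM, at 0.132 or less. None of the 6 tested carcinoma markers passed an unadjusted p of 0.05, which 11.2% of all genes tested passed, and all 6 had log2 fold changes below 0, with a median of -0.14. Among 8 fibroblast and stellate cell markers the summed level was 0.587, 0.776 and 0.704 FPKM in the MA samples and 0.721, 0.745 and 0.761 in PANC-1. LUM made up 71.6% of this sum, and DCN, FAP and POSTN were at 0.0175 FPKM or less in every sample. The 4 endothelial markers summed to 0.180 FPKM or less. Of 3 leukocyte markers CD68 alone was abundant, between 25.6 and 40.9 FPKM, while CD3E had no counts and PTPRC was at 0.0120 FPKM or less. The acinar genes PRSS1, CPA1 and PNLIP had no counts either, and CELA3A was at 0.00585 FPKM in PANC-1 1 alone.

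Of the 55 chain genes, 30 reached 0.1 FPKM on average over the 6 samples and were tested, 23 collagens and 7 laminins. Their transcripts were long and rich in G and C beside those of the 17774 genes tested, with a median length of 6488 against 2785 bases and a median GC content of 60.3% against 48.8%. A mean of at least 1 FPKM was reached by 21 members and a mean of at least 10 FPKM by 10. Another 19 had counts but fell under the filter: COL2A1, COL4A3, COL4A4, COL8A1, COL8A2, COL9A2, COL10A1, COL14A1, COL15A1, COL17A1, COL19A1, COL20A1, COL21A1, COL23A1, COL24A1, COL28A1, LAMA1, LAMA2 and LAMA4. Another 6 had no count in any sample: COL6A5, COL6A6, COL9A1, COL22A1, COL25A1 and LAMB4. For reads counted independently, a count of 0 would set only an upper limit of 3 per library, from counting error alone. The estimated counts sum to more than the reads, so this limit may be too low here.

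**Figure D1:**
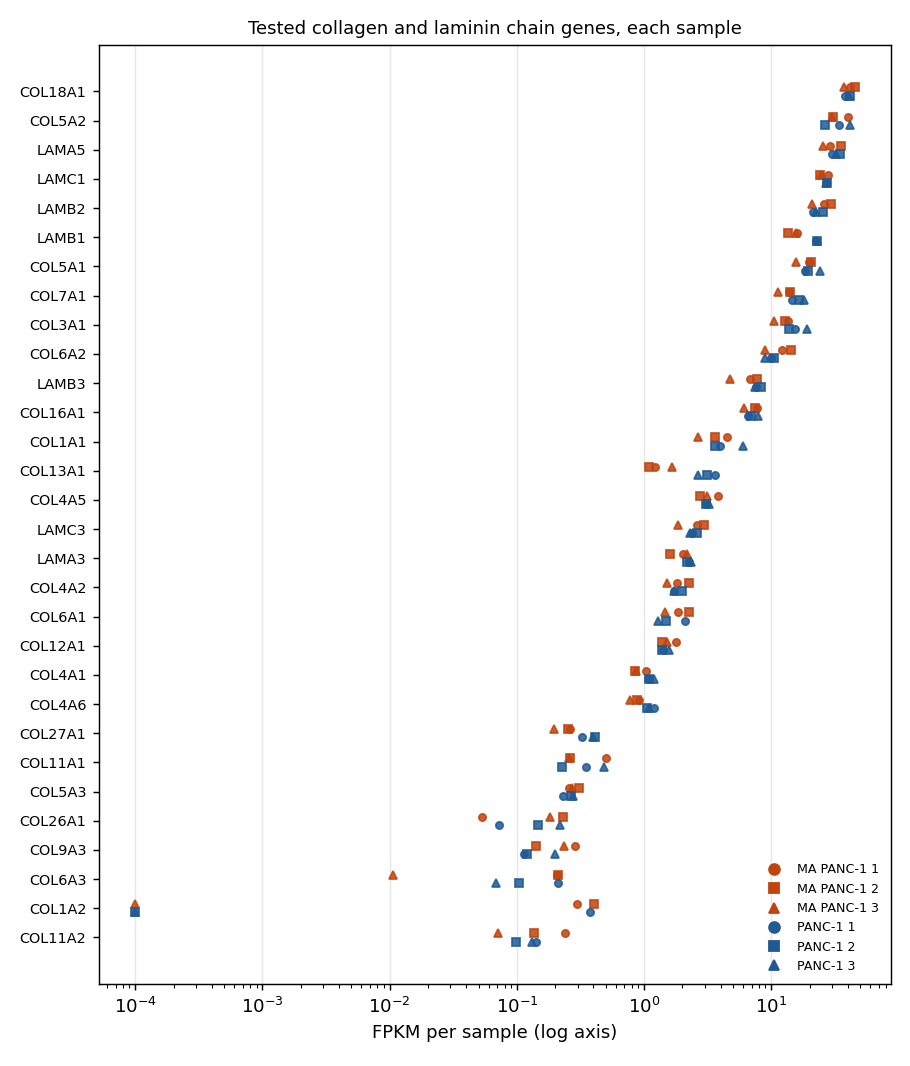
FPKM of the 30 tested chain genes in each of the 6 samples, on a log axis, ordered by the mean of PANC-1, with MA PANC-1 in orange and PANC-1 in blue and a symbol for each replicate number. The 10 most abundant genes lie at 8.87 FPKM or more in every sample, and the points at 0.0001 FPKM are samples without counts for COL1A2.

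Among the laminin chains described, LAMB1 fell after MA by the unadjusted p of 0.05, and in edgeR it did not pass after adjustment over all genes. LAMB1, a beta chain of many basement membrane laminins, was at 16.0, 13.5 and 15.7 FPKM in the MA samples and at 22.3, 23.0 and 22.7 in PANC-1. All 3 treated samples lay under all 3 controls. The group means were 15.1 ± 1.33 and 22.7 ± 0.312 FPKM (SD, n = 3), and the log2 fold change was -0.56 ± 0.08 (SE), with a 95% interval from -0.75 to -0.37. In edgeR's quasi-likelihood test this gave an unadjusted p of 0.000205 and an adjusted p of 0.152. The adjusted p was 0.000181 by DESeq2 and 0.0365 in edgeR with the GC trend removed, and over the other 13 alternatives it ran from 0.0885 to 0.557. In bulk RNA, fewer cells that express a gene and less of its RNA per cell cannot be told apart.

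LAMB1 is the gene ENSG00000091136 on the minus strand of chr7:107923799-108003176 in GRCh38 coordinates as deposited. The span of LAMB1 overlaps AC005046 on the opposite strand, whose mean was 0.300 FPKM. The library kit marks the strand, but whether the counting used it is not given in the sources used here.

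LAMA3, LAMA5, LAMB2, LAMB3, LAMC1 and LAMC3 did not pass the test. LAMA5, the alpha chain of laminin-511, was at 28.7, 35.4 and 25.5 FPKM in the MA samples and at 30.2, 35.0 and 32.3 in PANC-1. Its span overlaps ADRM1, a proteasome gene on the opposite strand with a mean of 127 FPKM. LAMC1, the gamma chain of most laminins, was at 27.7, 24.2 and 24.7 FPKM in the MA samples and at 26.9, 27.6 and 27.0 in PANC-1. The groups overlapped, and the 95% interval of the log2 fold change ran from -0.25 to 0.14. LAMB2, the beta chain that can take the place of LAMB1 in a trimer, was at 26.1, 29.7 and 20.9 FPKM in the MA samples and at 21.4, 25.4 and 22.4 in PANC-1, with a log2 fold change of 0.19 ± 0.16 (SE). The groups overlapped for LAMB2 as well. LAMB3, the beta chain of laminin-332, was at 6.76, 7.77 and 4.78 FPKM in the MA samples and at 7.56, 8.27 and 7.42 in PANC-1. LAMA3, its alpha chain, was at 2.04, 1.60 and 2.17 FPKM in the MA samples and at 2.26, 2.19 and 2.35 in PANC-1. The groups were apart for LAMA3, by a margin smaller than the spread of the MA samples, with an unadjusted edgeR p of 0.142, and they overlapped for LAMB3. Of the 7 tested laminin chains 5 had a log2 fold change below 0, and the median was -0.08.

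Ratios between chains that share a trimer or can replace each other in one, which cancel a scaling error of a whole library, were compared sample by sample. The ratio LAMB1/LAMC1 in FPKM was 0.576, 0.560 and 0.636 in MA PANC-1 and 0.832, 0.830 and 0.841 in PANC-1. The 3 controls were nearly alike and all 3 treated samples lay under them. The GC content of these transcripts was 49.5% for LAMB1 and 48.7% for LAMC1. The ratio LAMB1/LAMB2 was added after the values were seen. It was 0.611, 0.456 and 0.752 in MA PANC-1 and 1.04, 0.903 and 1.02 in PANC-1. The groups did not overlap for this ratio either, and the lowest value was that of MA PANC-1 2, a library whose reads came from GC-richer transcripts, as described below. LAMB2 has a GC content of 60.3%, and its log2 fold change was 0.08 once the GC trend was removed, a correction that the ratio does not carry. The groups overlapped for LAMA5/LAMC1, which was 1.18 ± 0.246 (SD, n = 3) in MA PANC-1 and 1.19 ± 0.0713 in PANC-1. These ratios were not tested.

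**Figure D2:**
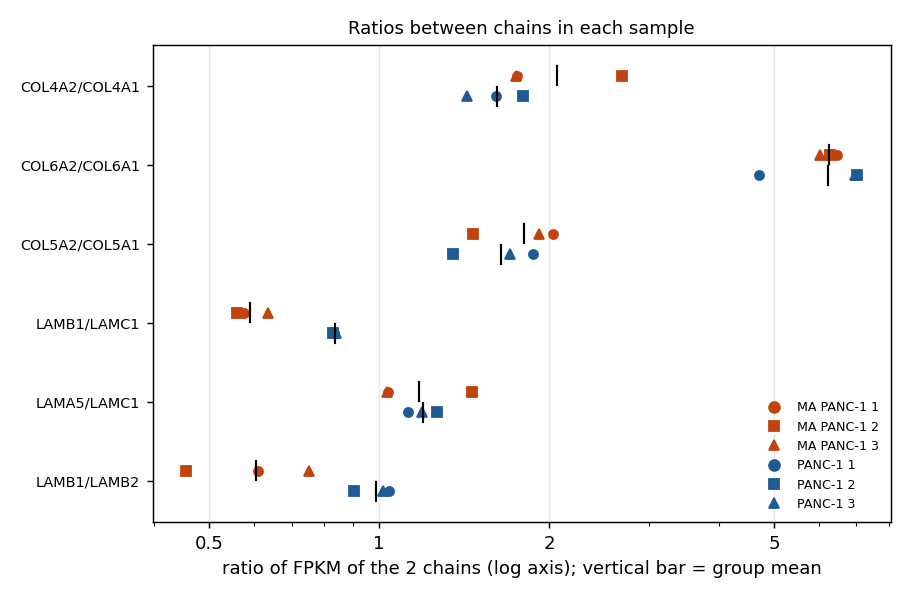
Ratio of the FPKM of 2 chains in each sample, on a log axis, with MA PANC-1 in orange, PANC-1 in blue and a vertical bar at each group mean. The groups are apart for LAMB1/LAMC1 and LAMB1/LAMB2 and overlap for the other 4 ratios.

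Among the collagens, COL13A1 and COL27A1 fell after MA by the same unadjusted threshold. COL13A1, a collagen that spans the plasma membrane and sits at sites of cell adhesion, was at 1.21, 1.09 and 1.65 FPKM in the MA samples and at 3.62, 3.13 and 2.64 in PANC-1. Every treated sample was under every control. The log2 fold change was -1.21 ± 0.20 (SE), with a 95% interval from -1.67 to -0.75, an unadjusted p of 0.000411 and an adjusted p of 0.183 in edgeR. COL13A1 was the only chain gene to pass the fold threshold that the study used for a differentially expressed gene (DEG), a fold of at least 2 or at most 0.5 with an unadjusted p under 0.05. COL27A1, a fibrillar collagen of cartilage, was at 0.262, 0.251 and 0.197 FPKM in the MA samples and at 0.327, 0.411 and 0.400 in PANC-1. The groups were apart at this low level, and the log2 fold change was -0.64 ± 0.21 (SE), with an unadjusted p of 0.0182 and an adjusted p of 0.417 in edgeR. COL13A1 is ENSG00000197467 on the plus strand of chr10:69801867-69964275, and COL27A1 is ENSG00000196739 on the plus strand of chr9:114155537-114312511.

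Since COL13A1, COL27A1 and LAMB1 moved in the same direction, the bases before their starts are shown, from a set of RefSeq promoter windows on GRCh38.p14. This set holds a window for 41 of the 55 genes. Searched on both strands in the 250 bases before the RefSeq start were the TATA box (TATAAA), the GC box (GGGCGG), the CCAAT box (CCAAT) and the AP-1 site (TGANTCA), and the capitals mark the matches. The sequences read 5′ to 3′ on the strand of the gene, and each stops where the deposited gene begins, so that LAMB1 has 235 bases at chr7:108003177-108003411, COL13A1 has 211 at chr10:69801656-69801866 and COL27A1 has 250 at chr9:114155287-114155536.
LAMB1: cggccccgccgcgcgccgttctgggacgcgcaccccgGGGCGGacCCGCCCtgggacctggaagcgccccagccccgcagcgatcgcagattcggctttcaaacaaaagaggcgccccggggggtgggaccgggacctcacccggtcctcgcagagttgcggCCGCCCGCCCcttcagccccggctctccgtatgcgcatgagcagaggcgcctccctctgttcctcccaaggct
COL13A1: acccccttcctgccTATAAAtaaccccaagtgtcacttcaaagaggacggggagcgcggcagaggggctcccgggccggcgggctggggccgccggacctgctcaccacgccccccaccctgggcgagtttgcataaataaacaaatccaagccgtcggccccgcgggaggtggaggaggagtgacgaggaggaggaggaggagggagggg
COL27A1: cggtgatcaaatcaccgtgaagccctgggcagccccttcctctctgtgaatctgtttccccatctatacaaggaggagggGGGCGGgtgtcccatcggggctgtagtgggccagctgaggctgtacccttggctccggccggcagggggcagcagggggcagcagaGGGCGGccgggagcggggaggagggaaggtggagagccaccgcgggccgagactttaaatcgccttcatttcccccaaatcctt
LAMB1 held 4 GC boxes, a pair of them overlapping, COL27A1 held 2, and COL13A1 held 1 TATA box, which began at position -236 from the RefSeq start, and no GC box. None of the 3 held a CCAAT box or an AP-1 site. Over all 35116 promoter windows of this length, 42.6% held a GC box, 10.7% a TATA box, 32.0% a CCAAT box and 6.57% an AP-1 site. Their GC content was 70.4% for LAMB1, 64.0% for COL13A1 and 64.4% for COL27A1, beside a median of 58.0% over all windows. None of the 4 motifs searched was found in all 3 windows.

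The most abundant chain gene was COL18A1, which encodes a basement membrane collagen whose end fragment is endostatin. It was at 41.7, 45.1 and 37.4 FPKM in the MA samples and at 38.2, 41.7 and 40.7 in PANC-1. The groups overlapped, and the 95% interval of the log2 fold change ran from -0.19 to 0.35. COL7A1, the chain of the anchoring fibrils, was at 13.8, 13.9 and 11.3 FPKM in the MA samples and at 14.6, 16.6 and 18.1 in PANC-1. These groups were apart, but with a log2 fold change of -0.30 ± 0.14 (SE) and an unadjusted p of 0.0615 in edgeR the gene did not pass the threshold. COL7A1 passed an unadjusted p of 0.05 in 7 of the 15 alternative fits, which were both limma fits, the filter at 1 FPKM, the removal of the GC trend with and without the replicate block, and the fits without MA PANC-1 2 or without PANC-1 1.

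The fibrillar collagens were led by chains of collagen V, which sets the width of fibrils, and not by collagen I. COL5A2 was at 40.0, 30.3 and 30.0 FPKM in the MA samples and at 34.4, 26.4 and 41.3 in PANC-1. COL5A1 was at 19.7, 20.7 and 15.7 FPKM in the MA samples and at 18.3, 19.5 and 24.3 in PANC-1. Both genes varied as much within each group as between the groups, and the ratio COL5A2/COL5A1 was 1.80 ± 0.299 (SD, n = 3) and 1.64 ± 0.266. COL3A1, a fibrillar collagen of soft tissues, was at 13.6, 12.9 and 10.5 FPKM in the MA samples and at 15.2, 13.7 and 19.0 in PANC-1. Its groups were apart, with a log2 fold change of -0.33 ± 0.16 (SE) and an unadjusted edgeR p of 0.0740. COL1A1, the main chain of collagen I, was lower, at 3.58 ± 0.935 FPKM in the MA samples and 4.51 ± 1.28 in PANC-1. The 11 fibrillar genes together came to 69.3 ± 9.92 FPKM in the MA samples and 76.4 ± 14.1 in PANC-1 (SD, n = 3), of which COL5A2 made up 46.3%.

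Collagen IV was sparse beside the laminins that share the basement membrane with it. Its 6 chains summed to 6.93 ± 0.655 FPKM in the MA samples and 7.20 ± 0.138 in PANC-1 (SD, n = 3), while LAMC1 alone was at 25.5 ± 1.91 and 27.2 ± 0.415. COL4A5 was its most abundant chain by FPKM, at 3.23 ± 0.556 and 3.13 ± 0.119 FPKM. By counts COL4A2 exceeded COL4A5 in MA PANC-1 2 (3360 against 2495) and PANC-1 2 (2986 against 2852), and was under it in the other samples. COL4A1 was at 1.04, 0.843 and 0.862 FPKM in the MA samples and at 1.07, 1.09 and 1.21 in PANC-1. COL4A2, which pairs with COL4A1 in the most widespread collagen IV trimer, was at 1.82, 2.27 and 1.51 FPKM in the MA samples and at 1.72, 1.97 and 1.73 in PANC-1. The groups were apart for COL4A1, with a log2 fold change of -0.26 ± 0.14 (SE) and an unadjusted edgeR p of 0.0946, and overlapped for COL4A2. These genes lie head to head on opposite strands and their deposited spans overlap. The ratio COL4A2/COL4A1 was 1.76, 2.70 and 1.75 in MA PANC-1 and 1.61, 1.80 and 1.43 in PANC-1, and its groups overlapped. COL4A6 had a log2 fold change of -0.34 ± 0.15 (SE), with groups apart and an unadjusted edgeR p of 0.0615.

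The chains of collagen VI had positive fold changes, none past the test. COL6A2 was at 12.1, 14.2 and 8.87 FPKM in the MA samples and at 9.91, 10.4 and 8.98 in PANC-1, with a log2 fold change of 0.30 ± 0.20 (SE), which was 0.10 without MA PANC-1 2 and 0.49 without MA PANC-1 3. COL6A1 was at 1.86, 2.26 and 1.47 FPKM in the MA samples and at 2.11, 1.49 and 1.29 in PANC-1. Both overlapped between the groups. The ratio COL6A2/COL6A1 was 6.25 ± 0.216 (SD, n = 3) in MA PANC-1 and 6.23 ± 1.32 in PANC-1. COL16A1 made up 80.0% of the FACIT collagens, which bind to the surface of fibrils, at 7.12 ± 0.856 FPKM in the MA samples and 7.14 ± 0.677 in PANC-1. COL12A1, another FACIT collagen, had a log2 fold change of 0.14 ± 0.13 (SE), and COL5A3, COL9A3, COL11A1, COL11A2, COL26A1 and LAMC3 had log2 fold changes from -0.02 for COL11A1 to 0.66 for COL9A3, with no unadjusted edgeR p under the 0.119 of COL9A3.

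**Figure D3:**
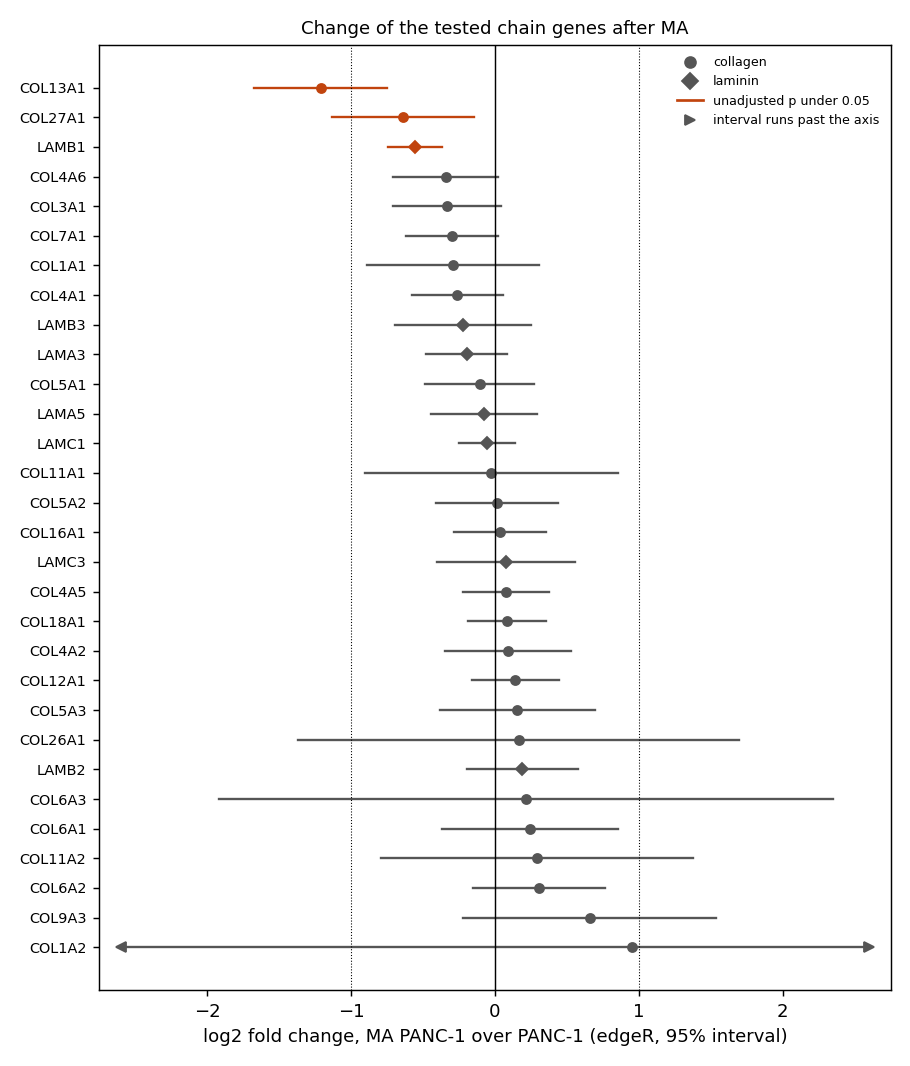
Log2 fold change of MA PANC-1 over PANC-1 for the 30 tested chain genes with its 95% interval from edgeR, circles for collagens and diamonds for laminins, with dotted lines at a change of 2-fold. The 3 genes in orange (COL13A1, COL27A1 and LAMB1) have an unadjusted p under 0.05 and lie to the left of 0, and the interval of COL1A2 runs past both ends of the axis.

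Counted together, 3 of the 30 tested chain genes (10%) had an unadjusted p under 0.05, close to the 11.2% of all genes tested. All 3 were lower after MA, while 5.86% of all genes tested passed in this direction and 5.37% in the other. In all, 1 of the 30 was a DEG, against 1.92% of all genes. By edgeR no chain gene had an adjusted p under 0.05, which 0.0394% of all genes had, whereas by DESeq2 COL13A1 and LAMB1 had one, among 263 genes that DESeq2 called. The groups did not overlap for 8 of the 30 (26.7%), all of them lower in MA PANC-1, against 11.1% of all genes tested apart in this direction, 8.79% in the other and 19.9% in either. Groups apart in this way give p = 0.1 in an exact two-sided permutation test over the samples, the smallest that 3 samples against 3 allow. That test therefore adds nothing for these 8. The median log2 fold change was 0.02 over the 30 chain genes and -0.0017 over all genes, with 14 chain genes below 0 and 16 above. It was -0.06 over the 21 chain genes with a mean of at least 1 FPKM. The 95% interval of the fold change stayed within 2-fold in either direction for 23 of the 30, and for 20 of the 21 with a mean of at least 1 FPKM, COL13A1 being the other. With the GC trend removed, the median was -0.03 over the 30 chain genes and 0.05 over all genes.

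These counts moved when single libraries were left out. MA PANC-1 3 had the lowest value of all 6 samples in 12 of the 21 chain genes with a mean of at least 1 FPKM, and the summed FPKM of the 55 genes was 278, 277 and 231 in MA PANC-1 and 271, 278 and 298 in PANC-1. MA PANC-1 2 stood apart from the other libraries on the first principal component of all genes, and its reads came from transcripts with a mean GC content of 51.2%, against 49.8% to 50.3% in the other 5. Without MA PANC-1 2, 7 chain genes passed an unadjusted p of 0.05, against 10.3% of all genes in that fit, all lower: the 3 above and COL4A6, COL7A1, LAMA5 and LAMB3. After removal of the GC trend from every library, 7 passed too, all lower: the 3 above and COL3A1, COL4A1, COL4A6 and COL7A1, and LAMB1 then had an adjusted edgeR p of 0.0365. In that fit 13.2% of all genes had an unadjusted p under 0.05. Without MA PANC-1 3, 5 of 30 passed, a smaller share than the 18.1% of all genes in that fit, and COL6A2 and LAMB2 among them were higher. LAMB1 and COL13A1 passed an unadjusted p of 0.05 in all 15 alternative fits, with log2 fold changes from -0.59 to -0.52 and from -1.38 to -0.83. The -0.83 of COL13A1 was by limma on log2(FPKM + 1). COL27A1 passed in 10 of the 14 in which it was tested and did not pass in either limma fit, where its p was 0.0733 with a pseudocount of 0.1 and 0.0636 with 1, nor without PANC-1 2 or without PANC-1 3.

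COL1A2, the partner of COL1A1 in collagen I, was uneven within both groups. It was at 0.296 and 0.405 FPKM for MA PANC-1 1 and 2 and at 0.378 in PANC-1 1, and it had no counts in MA PANC-1 3, PANC-1 2 and PANC-1 3. The counts behind these values were 228, 351 and 361, and the log2 fold change was 0.95 ± 2.05 (SE). After this was seen, the tested genes with the same 3 libraries highest were counted. They were 4 of the 30 chain genes (13.3%; COL1A2, COL6A1, COL6A3 and COL11A2), or 3 of 29 (10.3%) without COL1A2. In the partner lists described below they were 7 of the 63 genes (11.1%; DAG1, FN1, MMP3, MMP14, MMP15, SPARC and TIMP3). Of all genes tested 4.06% had the pattern. COL1A2, COL6A3, DAG1, FN1, MMP3, SPARC and TIMP3 were named after their values were seen, so shares that include them cannot show an excess. TIMP3 inhibits metalloproteinases and SPARC binds collagen. COL6A3, the long chain of collagen VI, was at 0.206, 0.212 and 0.0106 FPKM in the MA samples and at 0.210, 0.105 and 0.0692 in PANC-1, with a log2 fold change of 0.21 ± 0.91 (SE). MMP3, the proteinase stromelysin-1, was at 0.723 and 0.814 FPKM for MA PANC-1 1 and 2 and at 2.53 in PANC-1 1, without counts in the other samples. FN1 (fibronectin) was at 0.835, 0.754 and 0.329 FPKM in the MA samples and at 0.812, 0.383 and 0.496 in PANC-1. DAG1, the laminin receptor dystroglycan, had the same 3 libraries highest at a much higher level, with 61.3, 64.5 and 5.96 FPKM in the MA samples and 50.1, 4.58 and 5.66 in PANC-1. The gap was smaller elsewhere, as for MMP15, a membrane-bound metalloproteinase, at 9.66, 13.3 and 8.47 FPKM in the MA samples and 9.59, 8.19 and 8.57 in PANC-1. The treatment groups overlapped for all of these genes with values given here. Among the 8 fibroblast markers, FAP and POSTN had counts in these 3 libraries, at 0.0175 FPKM or less, and none in the others. THY1 was highest in the same 3, at 0.0719, 0.120 and 0.0361 FPKM against 0.0271 or less. PDGFRA had counts in MA PANC-1 1, MA PANC-1 2 and PANC-1 2 alone, at 0.0259 FPKM or less. DCN had counts in MA PANC-1 1 and PANC-1 1 alone, at 0.0107 FPKM or less. LUM, the most abundant marker, did not follow the pattern, at 0.351, 0.387 and 0.600 FPKM in these libraries and at 0.609, 0.514 and 0.616 in MA PANC-1 3, PANC-1 2 and PANC-1 3. Neither did ACTA2 and PDGFRB, and the part of other cells in it was not tested.

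**Figure D4:**
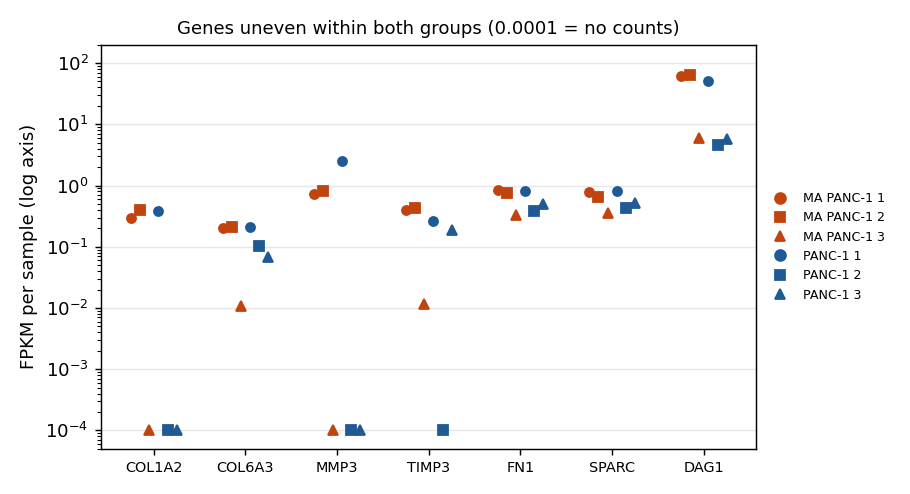
FPKM of 7 of the 11 chain and partner genes with the same 3 libraries highest, in each sample, on a log axis, with MA PANC-1 in orange and PANC-1 in blue, and 0.0001 FPKM standing for no counts. MA PANC-1 1, MA PANC-1 2 and PANC-1 1 are the highest 3 of the 6 samples for each gene, and DAG1 is at 50.1 FPKM or more in them and at 5.96 or less in the others.

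The proteins that work with the chains were taken from fixed lists, beginning inside the cell. All 19 genes for folding and modifying collagen were tested, and only P4HA2, a subunit of the enzyme that hydroxylates proline in collagen, passed an unadjusted p of 0.05 (5.26%, under the 11.2% of all genes). It rose, from 6.76, 6.68 and 6.51 FPKM in PANC-1 to 8.55, 9.27 and 7.25 in MA PANC-1, with a log2 fold change of 0.37 ± 0.13 (SE), an unadjusted p of 0.0238 and an adjusted edgeR p of 0.429. The most abundant of the list was PPIB, a proline isomerase, at 172, 174 and 158 FPKM in the MA samples and 170, 171 and 180 in PANC-1, with overlapping groups. The list's median log2 fold change was 0.04. Of 15 genes that trim procollagen or crosslink the matrix 9 were tested and 1 passed (11.1%, close to the share of all genes). This was TGM2, the tissue transglutaminase and the most abundant of them, which fell from 60.3, 66.5 and 61.0 FPKM to 43.9, 52.3 and 41.1, with a log2 fold change of -0.41 ± 0.13 (SE), an unadjusted p of 0.0168 and an adjusted edgeR p of 0.414. The lysyl oxidases and procollagen proteinases tested in this list did not pass. P4HA2 passed in 11 of the 15 alternative fits, and not without MA PANC-1 1 or any 1 of the 3 controls, and TGM2 passed in 13, and not without MA PANC-1 1 or without PANC-1 2.

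Outside the cell, none of 14 tested metalloproteinase and inhibitor genes, of 21 listed, passed an unadjusted edgeR p of 0.05, against 11.2% of all genes, and the groups were apart for 3 of them (21.4%, against 19.9%). TIMP1, the most abundant, was at 201, 228 and 177 FPKM in the MA samples and 192, 209 and 196 in PANC-1. None of 8 tested basement membrane partners, of 10 listed, passed either, with groups apart for 1 (12.5%), and the most abundant of them, the proteoglycan gene AGRN, was at 41.7, 48.8 and 37.6 FPKM in the MA samples and 39.7, 42.7 and 41.7 in PANC-1. Both genes overlapped between the groups, and the median log2 fold changes of these lists were -0.02 and 0.08.

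Among the receptors for collagen, ITGA1, ITGA2, ITGA10 and ITGB1 fell after MA by the unadjusted threshold. Of the 9 listed receptors analysed, 7 were tested and 4 had an unadjusted p under 0.05, all lower (57.1%, against 5.86% of all genes in this direction), with a median log2 fold change of -0.45. ITGA2, the alpha chain of the main collagen integrin of epithelial cells, was at 11.3, 7.57 and 5.38 FPKM in the MA samples and at 21.7, 21.7 and 21.2 in PANC-1. The controls were alike and every treated sample lay far below them, with a log2 fold change of -1.38 ± 0.25 (SE), an unadjusted p of 0.000763 and an adjusted p of 0.222 in edgeR. ITGB1, the beta chain that ITGA1, ITGA2 and ITGA10 bind to, was at 102, 109 and 107 FPKM in the MA samples and at 155, 125 and 165 in PANC-1, a log2 fold change of -0.45 ± 0.12 (SE) with an adjusted edgeR p of 0.388. ITGA10 and ITGA1, alpha chains at under 0.7 FPKM in every sample, had log2 fold changes of -1.19 ± 0.36 and -0.56 ± 0.22 (SE), with adjusted edgeR p-values of 0.388 and 0.435. ITGA2 and ITGA10 were DEGs, as were 1.92% of all genes, and the groups were apart for all 4, as they were with MA lower for 11.1% of all genes. The count of 4 was 2 with the GC trend removed and the replicate block added, where ITGA2 and ITGA10 passed, and 3 or 4 in the other alternative fits with 7 or more of the list tested. The share of all genes under 0.05, in either direction, was 11.85% in the former and 6.63% to 18.1% in the latter. ITGA2 passed the unadjusted threshold in all 15 alternative fits and ITGA10 in all 14 in which it was tested. Their log2 fold changes ran from -1.67 to -1.11 and from -1.45 to -0.18. The -0.18 of ITGA10 was by limma on log2(FPKM + 1), whose pseudocount of 1 exceeds every value of this gene. ITGB1 passed in 13 of 15, but not once the GC trend was removed, with or without the replicate block, and its log2 fold change ran from -0.56 to -0.17. ITGA1 passed in 7 of 14, and did not in either limma fit, with the GC trend removed and the block added, or without MA PANC-1 1, MA PANC-1 2, PANC-1 1 or PANC-1 3. Of the 7 laminin receptor genes, all tested, ITGB1 was the only one to pass an unadjusted p of 0.05 (14.3%, near the 11.2% of all genes). ITGA3, an alpha chain of laminin-binding integrins, was about as abundant as ITGB1, at 118, 138 and 98.1 FPKM in the MA samples and 122, 155 and 128 in PANC-1, with overlapping groups. DDR1, a receptor kinase that collagen activates, had a log2 fold change of 0.04 ± 0.12 (SE).

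**Figure D5:**
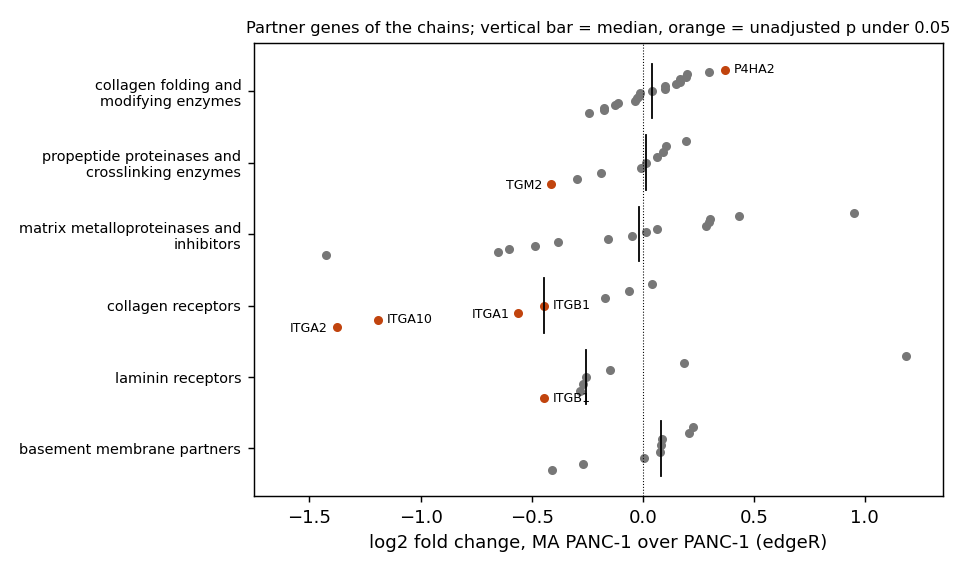
Log2 fold change of MA PANC-1 over PANC-1 for the tested genes of 6 partner lists, 1 point per gene, with a vertical bar at the median of each list and genes with an unadjusted edgeR p under 0.05 in orange. The median of the collagen receptors lies at -0.45, that of the folding enzymes at 0.04, and ITGB1 stands in both receptor lists.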

How the data were processed

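The authors shipped RNA of 3 MA PANC-1 and 3 PANC-1 samples to a company, and it was sequenced as poly(A) libraries. For each gene and sample they deposited an estimated count, a whole number that is not normalized, and an FPKM value, normalized by the authors for gene length and depth, with 0.0001 listed where there is no count. The submitters' processing notes name cutadapt 1.9, HISAT2 2.0.4, StringTie 1.3.4d, edgeR and DESeq2. A genome build is not given in the sources used here, and 47519 of the 58552 GENCODE 29 genes have the same position in the table, which is GRCh38, among them 24 of the 55 chain genes. No per-sample column was left unmapped (0).

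The 17774 genes that reached 0.1 FPKM on average were fitted with the quasi-likelihood test of edgeR 4.0.16 in R 4.3.3, with TMM normalization and Benjamini-Hochberg adjustment over all of them. DEGs followed the thresholds of the study, an unadjusted p under 0.05 with a fold of at least 2 or at most 0.5. For an SE, the log2 fold change was divided by the square root of F. Sums of FPKM and chain ratios were described without a test, and COL1A2/COL1A1 was left out because COL1A2 is under 1 FPKM. Summed counts exceed the reads, so precision rests on the spread between replicates. The scripts were tested on simulated data.

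A further row (1) matches the name rule, and it and another item of the lists are not reported here and are in no count of members or markers. The members and gene lists were chosen with earlier results of these data known. Values in every sample were given for the 10 most abundant members, members with an unadjusted p under 0.05, partner chains of the ratios, and LAMA3 and LAMB3. From each partner list they were given for its most abundant gene and for genes with an unadjusted p under 0.05, except ITGA1 and ITGA10. The genes of the uneven pattern, the chain COL1A2 included, DDR1 and ITGA3 were added after their values were seen. MRC2, a further collagen receptor of the list, was not analysed here and is not among the 9. Alternatives were DESeq2 1.42.0, limma 3.58.1 on log2(FPKM + 0.1) and log2(FPKM + 1), a filter at 1 FPKM or none, the replicate number as a block, removal of the GC trend with and without the block, halved counts and leaving out each sample.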

Additional observations from a re-analysis of the deposited data

How the results depend on the processing

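Over 15 alternatives the count of chain genes with an unadjusted p under 0.05 stayed within 1.5 times of 3 except with no filter (5), where the GC trend was removed (7, and 6 with the replicate block) and where libraries were left out (2 to 7). The share of all genes under 0.05 was 11.2% as reported, 7.78% with no filter (49 chain genes tested), 13.2% and 11.8% in the fits on GC, and from 6.63% without PANC-1 1 to 18.1% without MA PANC-1 3. By limma and with the filter at 1 FPKM the 3 were LAMB1, COL13A1 and COL7A1, with COL27A1 not tested under that filter. Of all genes, 11.05% and 11.23% passed by limma with pseudocounts of 0.1 and 1, and 12.1% by DESeq2. With the filter at 1 FPKM 21 chain genes were tested, and 12.95% of all 11470 genes passed. The lowest count came without PANC-1 3, and counts of 5 or more came without MA PANC-1 2, MA PANC-1 3 and PANC-1 1. The DEG count was 0 by limma on log2(FPKM + 1), where 44 of all 17774 genes were DEGs against 342 as reported, and 3 with no filter (569 of 28488 genes), where COL2A1 (12, 18 and 8 counts in MA PANC-1) and COL8A1 (8, 9 and 8) were added against no counts in PANC-1. It was 1 to 2 with a library left out, where 326 to 534 of all 17774 genes were DEGs. The second was COL1A2, without PANC-1 1, the only control with counts for it, and 358 of all genes were DEGs in that fit. Chain genes with an adjusted p under 0.05 numbered 2 by DESeq2, of 263 genes in all, and 1 with the GC trend removed, of 22. The median log2 fold change ran from -0.11 to 0.11 with a library left out, with -0.10 and -0.11 without MA PANC-1 1 and MA PANC-1 2 and 0.11 without MA PANC-1 3. Genes near 0 turned their sign: COL5A2 was at -0.0126 by limma with either pseudocount, at -0.0080 with the filter at 1 FPKM and between -0.14 and 0.17 with a library left out. COL18A1 and COL4A2 were at -0.0252 and -0.0275 with the GC trend removed and at -0.0243 and -0.0356 with the block added, and with a library left out they ran from -0.0248 to 0.17 and from -0.12 to 0.24. LAMA5 then ran from -0.26 to 0.0438 and COL5A1 from -0.23 to 0.0261. The cause of these shifts was not tested. The replicate numbers did not pair the samples (correlations of same-numbered deviations of 0.029, 0.05 and 0.072), and the replicate block left 3 chain genes under 0.05, 1 DEG and a median of 0.0027. With the block 12.46% of all genes were under 0.05 and 327 were DEGs. COL6A3 had an interval from -1.92 to 2.35 with 15 to 349 counts. Halving the counts of all genes left 3 chain genes under 0.05, beside 11.3% of all genes in that fit.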
